A study of Homo sapiens with 6 samples.

Results

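The set described here holds 10 genes of early-response transcription factors: the FOS family (FOS, FOSB, FOSL1, FOSL2), the JUN family (JUN, JUNB, JUND), and EGR1, ATF3 and MYC. They were taken by gene symbol, 10 of the 52401 genes in the authors' tables, and each symbol matched 1 gene. Values come from MCF10A cells, a non-tumorigenic human breast epithelial line. The F1F2 cells carry retroviral Flotillin1-HA and Flotillin2-mCherry and were selected with puromycin and hygromycin (3 libraries). The mCherry cells carry retroviral mCherry alone and were selected with puromycin (3 libraries). Both lines were kept in the same medium, with 5% horse serum, 20 ng/ml EGF, 10 µg/ml insulin, 0.5 µg/ml hydrocortisone and 100 ng/ml cholera toxin. Each group is a stable line, so flotillin level, number of vectors and hygromycin selection cannot be told apart.

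FOS and JUN proteins dimerise through leucine zippers and bind DNA as AP-1, a family of dimers whose members differ in partner choice and in how strongly they activate transcription. Growth factors such as EGF switch on FOS, EGR1, JUNB and ATF3 within minutes, through ERK, JNK and p38 kinases and through serum response factor, and most of these transcripts are short-lived. FOSL1 and FOSL2 follow more slowly, and FOSL1 protein is further stabilised by ERK. MYC is a related early target of growth signals that drives growth and ribosome genes. In breast epithelium, FOSL1 is known for its high level in basal-like and mesenchymal-like cells.

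Early induction runs through short promoter elements, so the promoters of 4 of the genes are printed. FOS, EGR1 and FOSL2 are shown because library 3 was the lowest of each group for all 3 (below), and JUN because it did not follow that pattern. The windows run from 250 bases before to 50 bases after the start and are from RefSeq, build GRCh38.p14; FOSL1 had no entry, and the MYC window is not shown. Capitals mark matches, on either strand, to the AP-1 site TGACTCA, to the JUN-type variant TGACATCA, to TGACGT (the core of the cyclic AMP element, which overlaps TGACGTCA) and to the CArG box bound by serum response factor.

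EGR1, chr5:138465229-138465528, plus strand: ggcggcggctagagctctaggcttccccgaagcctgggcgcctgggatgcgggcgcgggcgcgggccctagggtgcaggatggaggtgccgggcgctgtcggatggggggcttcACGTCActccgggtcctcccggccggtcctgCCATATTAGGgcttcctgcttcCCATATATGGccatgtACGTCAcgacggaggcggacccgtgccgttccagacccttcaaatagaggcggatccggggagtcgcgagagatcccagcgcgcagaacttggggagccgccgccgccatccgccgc
FOS, chr14:75278578-75278877, plus strand: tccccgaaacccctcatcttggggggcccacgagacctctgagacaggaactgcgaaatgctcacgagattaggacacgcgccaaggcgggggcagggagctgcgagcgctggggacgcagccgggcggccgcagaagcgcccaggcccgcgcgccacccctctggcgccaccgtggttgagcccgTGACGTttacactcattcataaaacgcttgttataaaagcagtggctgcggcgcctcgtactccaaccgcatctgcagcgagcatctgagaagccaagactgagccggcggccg
FOSL2, chr2:28392608-28392907, plus strand: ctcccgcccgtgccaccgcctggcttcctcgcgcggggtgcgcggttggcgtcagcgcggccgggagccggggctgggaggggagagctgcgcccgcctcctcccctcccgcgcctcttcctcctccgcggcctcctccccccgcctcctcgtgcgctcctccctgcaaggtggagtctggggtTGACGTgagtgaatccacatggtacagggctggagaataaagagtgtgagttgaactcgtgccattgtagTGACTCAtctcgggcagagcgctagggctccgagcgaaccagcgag
JUN, chr1:58783998-58784297, minus strand: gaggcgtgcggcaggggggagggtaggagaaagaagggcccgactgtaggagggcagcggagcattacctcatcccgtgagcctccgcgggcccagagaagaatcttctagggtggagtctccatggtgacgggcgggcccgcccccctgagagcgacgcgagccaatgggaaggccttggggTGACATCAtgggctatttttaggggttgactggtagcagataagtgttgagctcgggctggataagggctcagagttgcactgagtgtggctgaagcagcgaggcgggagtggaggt

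The EGR1 window held 2 CArG boxes and 2 TGACGT matches, the FOS window 1 TGACGT, the FOSL2 window 1 TGACTCA and 1 TGACGT, and the JUN window 1 TGACATCA. Among 35116 RefSeq promoter windows of the same length, 1.29% held a CArG box, 4.95% TGACTCA, 2.61% TGACATCA and 7.98% TGACGT. Windows of other genes of the set that are not printed held some of the same matches. The JUND window held 3 TGACGT matches and the FOSB window 1, though library 3 was not the lowest of both groups for either gene. An ATF3 window held 1 TGACATCA. A match is a string of letters, not a measured binding site. Sequence outside the windows was not searched. The FOS window held no CArG box match, which does not show that FOS lacks such an element further upstream.

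The introduced genes were higher in F1F2 cells, with log2 fold changes of 3.38 for FLOT1 (adjusted p = 1.03e-32) and 3.35 for FLOT2 (adjusted p = 5.14e-35) in the authors' deposited DESeq2 table. The files give group means, from which the counts of each library were solved. Libraries are numbered 1 to 3 within a group by falling size factor, since no replicate numbers came with them. Each library held between 19039406 and 20357471 counts in solved genes. Gaps in these counts point to a rescaling that no label or header describes (closing section); undone by the estimated factors, the totals lie between 14873015 and 23220276. Library 3 stood apart in both groups. The summed normalized counts of 12 cell cycle genes were 18219, 16225 and 78833 in F1F2 libraries 1 to 3, and 6955, 15453 and 68000 in mCherry libraries 1 to 3. Set against the average of libraries 1 and 2, library 3 held over 2-fold more of all 12 in each group, against 3.33% of all genes. Of 7 epithelial and basal markers 5 were lower in F1F2 cells and 0 higher in the authors' deposited DESeq2 table, with CDH1 at -7.31 (log2 fold change, adjusted p = 3.13e-90), while KRT5 had deposited means of 67351 in F1F2 and 48381 in mCherry cells. The summed counts of the 6 solved markers ran from 22105 to 36917 in F1F2 and from 36359 to 68474 in mCherry libraries. That sum leaves out KRT5, and in F1F2 cells most of it was KRT6A, at 23476, 35226 and 21300 in libraries 1 to 3. KRT6A had 10800, 6595 and 20836 in mCherry libraries 1 to 3. Its rise in F1F2 cells had an adjusted p of 0.0571 in the DESeq2 table and a q of 0.00265 in the authors' deposited Tuxedo table. Of 4 tested fibroblast markers 3 were higher and 1 lower, with DCN at 42467 in F1F2 and 4659 in mCherry cells and THY1 at 0 in both; 6 of the 7 markers, without DCN, summed to 201 to 250 in F1F2 and 210 to 405 in mCherry libraries. The 5 immune and endothelial markers summed to at most 9.12 in F1F2 and 13.3 in mCherry libraries, with CD3E at 0. The part of other cell types in the results below was not tested.

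None of the 10 genes passed the test between F1F2 and mCherry cells. An adjusted p under 0.05 was reached by 0 of 10 in the authors' deposited DESeq2 table, where 23.6% of 19733 genes tested reached it (11.6% higher, 12.0% lower), and under 0.01 by 0 of 10, where 14.6% did (6.67% higher, 7.91% lower). At an unadjusted p under 0.05 there were 2, MYC and FOSL1, against 24.2% of all genes. The authors' deposited Tuxedo table called 2 of the 9 genes it tested, FOSL1 higher (q = 0.0311) and MYC lower (q = 0.0478), against 16.9% of 17022 genes (6.93% higher, 10.0% lower). A limma fit of the solved libraries called 0 of 10 (23.4% of all genes, 12.2% higher and 11.1% lower), with 1 at an unadjusted p under 0.05 (40.1%). Of the deposited means 5 were higher and 5 lower in F1F2 cells. The median standard error of the log2 fold change in the limma fit was 0.44 for these 10 genes and 0.29 over all genes. RNA was measured in bulk, so fewer expressing cells and less RNA per cell cannot be told apart.

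**Figure D1:**
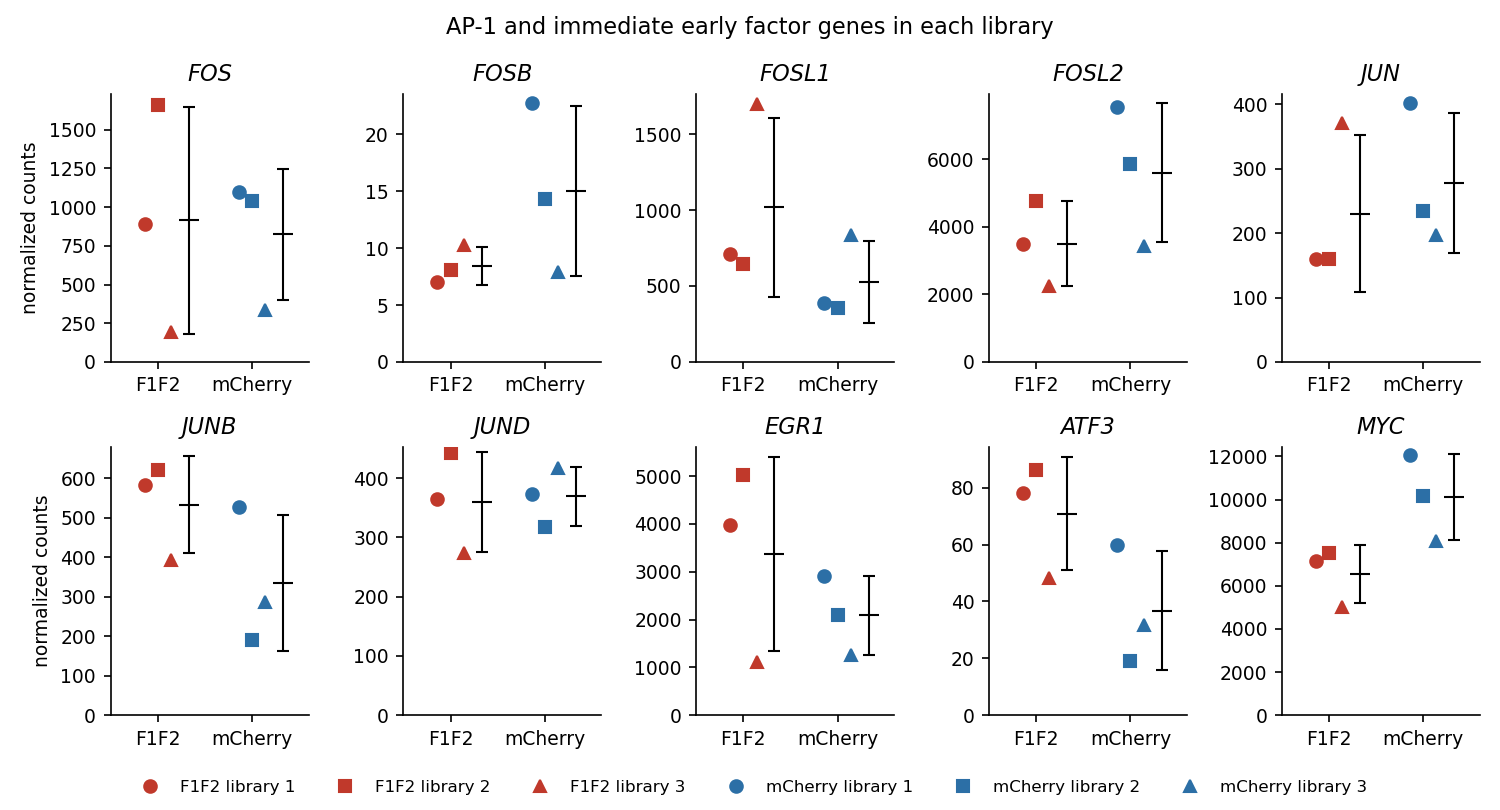
Normalized counts of each gene in each library (y axis, linear, own scale per gene), F1F2 left and mCherry right; markers give the library number, bars the mean ± SD over 3 libraries. MYC is the gene whose groups do not overlap; in FOS, EGR1, FOSL2 and MYC library 3 is the lowest of both groups.

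Per length of transcript, MYC was the most abundant of the set in the authors' deposited Tuxedo table, with 141 FPKM in F1F2 and 227 FPKM in mCherry cells. EGR1 had 51.0 FPKM in F1F2 cells, ahead of FOSL1 (31.0), FOSL2 (26.4), FOS (19.5), JUNB (16.3) and JUND (13.1). In mCherry cells FOSL2 came after MYC with 41.4 FPKM, ahead of EGR1 (32.7), FOS (18.6), FOSL1 (17.4), JUND (13.0) and JUNB (9.53). JUN, ATF3 and FOSB were at the low end, with 3.0, 2.04 and 0.135 FPKM in F1F2 and 3.97, 0.917 and 0.219 FPKM in mCherry cells. These are group values with no spread, so the order of close neighbours such as FOS and FOSL1 in mCherry cells cannot be set against replicate error.

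Within the FOS family, the family total was 77.1 FPKM in F1F2 and 77.6 FPKM in mCherry cells, with these shares of each gene. FOSL1 made up 40.3% of the family FPKM in F1F2 and 22.4% in mCherry cells. FOSL2 made up 34.2% in F1F2 and 53.4% in mCherry cells. FOS held 25.3% in F1F2 and 23.9% in mCherry cells. In the JUN family, JUNB made up 50.2% of 32.3 FPKM in F1F2 cells and 35.9% of 26.5 FPKM in mCherry cells. All shares are group values from the authors' deposited Tuxedo table, with no spread, and the FOSL1 to FOSL2 and JUNB to JUN ratios of single libraries, given below, overlapped between groups.

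**Figure D2:**
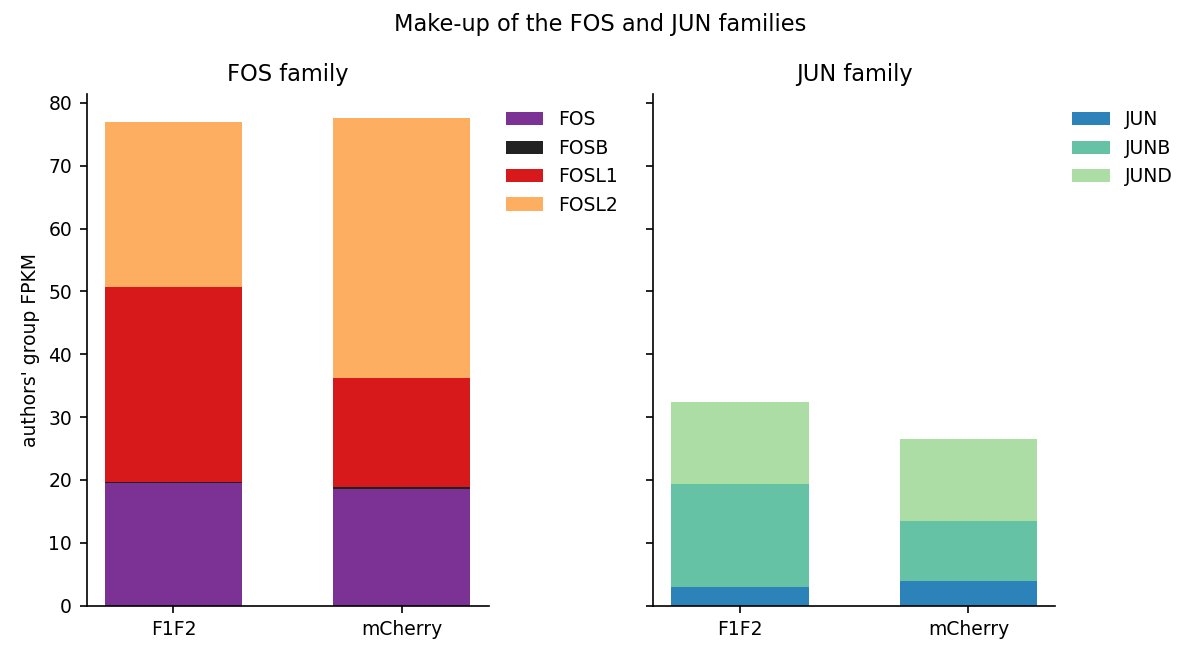
Stacked bars of the authors' group FPKM (y axis, linear) of the FOS family (left) and JUN family (right), F1F2 beside mCherry, with no error since these are group values. The FOS family bars are nearly equal in height, 77.1 and 77.6 FPKM, with FOSL1 at 40.3% in F1F2 and 22.4% in mCherry.

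FOSL1 (chromosome 11, 65659692 to 65667997 in GRCh37), which encodes FRA1, a FOS protein without the activation domain of FOS, had 712, 644 and 1695 normalized counts in F1F2 libraries 1 to 3. In mCherry libraries 1 to 3 it had 388, 354 and 837. Library 3 was the highest of each group, and the groups overlapped because F1F2 library 2 lay below mCherry library 3. The mean was 1017 ± 588 in F1F2 and 526 ± 270 in mCherry cells (SD, n = 3), 1.93-fold. The authors' deposited DESeq2 table gives a log2 fold change of 0.86 (p = 0.0478, adjusted p = 0.138), and the limma fit 0.92 with a 95% interval of -0.16 to 1.99. Between libraries 1 and 2 of each group the ratio of means was 1.83, and between the libraries numbered 3 it was 2.02.

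FOSL2 (chromosome 2, 28607276 to 28640179), encoding the FOS-related protein FRA2, had 3496, 4759 and 2251 normalized counts in F1F2 libraries 1 to 3, against 7547, 5860 and 3428 in mCherry libraries 1 to 3. The groups overlapped through mCherry library 3, the lowest of its group. Its deposited log2 fold change was -0.64 in the authors' deposited DESeq2 table (adjusted p = 0.203), and the limma interval ran from -1.51 to 0.17. The FOSL2 locus is shared with AC104695.3, a transcript with deposited means of 18.5 in F1F2 and 19.9 in mCherry cells.

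The ratio of FOSL1 to FOSL2 counts compares the 2 genes inside a library and does not depend on scaling. It was 0.204, 0.135 and 0.753 in F1F2 libraries 1 to 3, and 0.0514, 0.0604 and 0.244 in mCherry libraries 1 to 3. The groups overlapped, since mCherry library 3 exceeded F1F2 libraries 1 and 2, and an exact permutation test of the log2 ratio gave p = 0.30 (two-sided, where 3 against 3 libraries allow no less than 0.10). The ratio was higher in F1F2 cells both among libraries 1 and 2 and between the libraries numbered 3; the permutation test takes no account of that split.

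FOS (chromosome 14, 75745531 to 75748932), the founding AP-1 partner of JUN, varied more between libraries than between groups. It had 888, 1660 and 196 normalized counts in F1F2 libraries 1 to 3, an 8.45-fold range. In mCherry libraries 1 to 3 it had 1097, 1042 and 337, a 3.26-fold range. Library 3 was the lowest of each group. The means were 915 ± 732 in F1F2 and 825 ± 424 in mCherry cells (SD, n = 3), and the authors' deposited DESeq2 table gives a log2 fold change of 0.12 (adjusted p = 0.897). The limma estimate on the log scale had the opposite sign, -0.14, with an interval from -2.12 to 1.84, too wide to set a direction.

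FOSB (chromosome 19, 45971253 to 45978414), which encodes another inducible FOS protein, was near the lower end of detection. It had 7.0, 8.11 and 10.3 normalized counts in F1F2 libraries 1 to 3, and 22.8, 14.3 and 7.90 in mCherry libraries 1 to 3. The groups overlapped, the adjusted p was 0.394 in the authors' deposited DESeq2 table, and the Tuxedo table did not test it. Its locus is shared with AC138128.1, a lincRNA with deposited means of 17.2 in F1F2 and 26.6 in mCherry cells, above those of FOSB.

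JUN (chromosome 1, 59246465 to 59249785), the strongest activator among the JUN proteins, had 160, 160 and 371 normalized counts in F1F2 libraries 1 to 3. In mCherry libraries 1 to 3 it had 402, 234 and 197. Library 3 was the highest in F1F2 and the lowest in mCherry cells, and the groups overlapped. The authors' deposited DESeq2 table gives a log2 fold change of -0.25 (adjusted p = 0.701).

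JUNB (chromosome 19, 12902310 to 12904124), a JUN protein that can restrain JUN, had 582, 622 and 394 normalized counts in F1F2 libraries 1 to 3, and 527, 190 and 287 in mCherry libraries 1 to 3. F1F2 library 3 lay below mCherry library 1, so the groups overlapped. The mean was 533 ± 122 in F1F2 and 335 ± 173 in mCherry cells (SD, n = 3), with a deposited log2 fold change of 0.62 (adjusted p = 0.237) in the authors' deposited DESeq2 table and a q of 0.0586 in their Tuxedo table. The JUNB to JUN count ratio was 3.64, 3.89 and 1.06 in F1F2 libraries 1 to 3 and 1.31, 0.812 and 1.45 in mCherry libraries 1 to 3, overlapping between groups (exact permutation p = 0.30, two-sided).

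JUND (chromosome 19, 18390563 to 18392432), the most constantly expressed JUN gene in most cells, had the smallest SD relative to its mean among these 10 in mCherry cells. It had 364, 443 and 274 normalized counts in F1F2 libraries 1 to 3, and 373, 318 and 417 in mCherry libraries 1 to 3. The groups overlapped, with the highest and the lowest library both in F1F2 cells. The limma log2 fold change was -0.05 with an interval from -0.62 to 0.52, which covers both directions.

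EGR1 (chromosome 5, 137801179 to 137805004), a zinc finger factor known as a target of serum response factor, had 3975, 5030 and 1119 normalized counts in F1F2 libraries 1 to 3. In mCherry libraries 1 to 3 it had 2915, 2092 and 1251. F1F2 libraries 1 and 2 were the highest of the 6 and F1F2 library 3 the lowest. The means were 3375 ± 2024 in F1F2 and 2086 ± 832 in mCherry cells (SD, n = 3), with a deposited log2 fold change of 0.62 (adjusted p = 0.349) in the authors' deposited DESeq2 table. The limma interval of -0.88 to 1.92 covered both directions.

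ATF3 (chromosome 1, 212738676 to 212794119), a stress-induced repressor of the same basic leucine zipper class, had 78.0, 86.1 and 48.3 normalized counts in F1F2 libraries 1 to 3. In mCherry libraries 1 to 3 it had 59.8, 19.1 and 31.6. The groups overlapped through F1F2 library 3 and mCherry library 1. The ratio of means was 1.92, with a deposited log2 fold change of 0.85 (adjusted p = 0.157) in the authors' deposited DESeq2 table and a q of 0.0796 in their Tuxedo table.

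MYC (chromosome 8, 128747680 to 128753674) had 7158, 7513 and 5014 normalized counts in F1F2 libraries 1 to 3, against 12066, 10157 and 8077 in mCherry libraries 1 to 3. Every F1F2 library lay below every mCherry library. MYC was the sole gene of the 10 whose groups did not overlap, where 45.2% of all genes in the limma fit had groups that did not overlap and 21.1% were lower in F1F2 cells in that way. The mean was 6562 ± 1352 in F1F2 and 10100 ± 1995 in mCherry cells (SD, n = 3), a ratio of 0.650. The log2 fold change was -0.60 (p = 0.0282, adjusted p = 0.0941) in the authors' deposited DESeq2 table and -0.69 (q = 0.0478) in their Tuxedo table. The limma fit gave -0.63 with an interval from -1.17 to -0.08 (adjusted p = 0.0906).

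FOS, EGR1, FOSL1, FOSL2, JUN and JUND differed more between library 3 and the mean of libraries 1 and 2, in each group, than between the group means. FOS in library 3 was 0.154 times the mean of libraries 1 and 2 in F1F2 and 0.315 times in mCherry cells. EGR1 was at 0.248 times in F1F2 and 0.500 times in mCherry cells, and FOSL2 at 0.545 and 0.511 times. FOSL1 went the other way, at 2.50 times in F1F2 and 2.26 times in mCherry cells. JUN was at 2.32 times in F1F2 but 0.620 times in mCherry cells, and MYC at 0.683 and 0.727 times. Of the 10 genes, 2 were over 2-fold lower and 1 over 2-fold higher there in each group, against 3.97% and 3.33% of all genes. The 12 cell cycle genes were higher in library 3 of each group, as FOSL1 was, while FOS, EGR1, FOSL2 and MYC were lower there. The part of the cell cycle genes in the result was not tested.

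**Figure D3:**
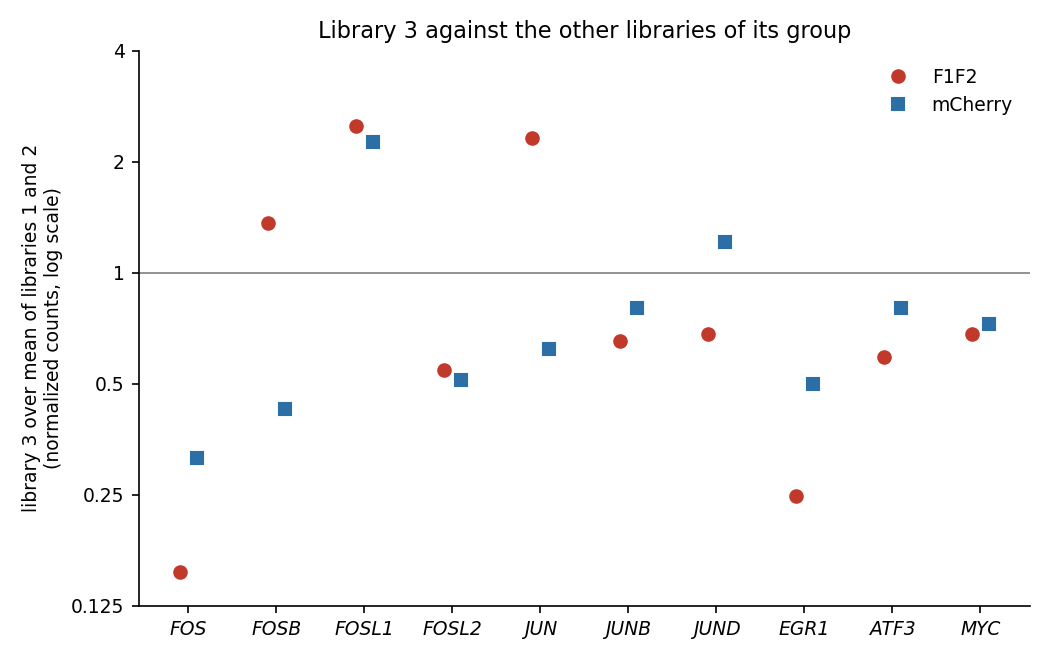
Normalized counts in library 3 divided by the mean of libraries 1 and 2 of the same group (y axis, log scale, 1 means equal), F1F2 circles left of mCherry squares for each gene. FOSL1 lies above 2 in both groups and FOS below 0.5 in both, while JUN lies on opposite sides.

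With the libraries numbered 3 left out, limma called 5 of the 10 genes: FOSL1 and EGR1 rose, and FOSL2, JUN and MYC fell. That share is close to the background of this fit, in which 44.2% of 15905 genes were called from 4 libraries (23.6% higher, 20.6% lower). With all 6 libraries limma called 23.4% of all genes. Leaving out the libraries numbered 3 rests on both standing apart in these data. Without them, FOSL1 averaged 678 normalized counts in F1F2 and 371 in mCherry cells (log2 fold change 0.87, 95% interval 0.42 to 1.32, adjusted p = 0.00753). EGR1 averaged 4503 in F1F2 and 2504 in mCherry cells (0.86, adjusted p = 0.0104), and JUN 160 in F1F2 and 318 in mCherry cells (-0.94, adjusted p = 0.0273). FOSL2 averaged 4128 in F1F2 and 6703 in mCherry cells (-0.70, adjusted p = 0.0233), and MYC 7336 in F1F2 and 11111 in mCherry cells (-0.59, adjusted p = 0.0231). FOS was at 0.18 with an interval from -0.48 to 0.85, against -0.14 with all 6 libraries. Leaving out mCherry library 3 alone was enough for 3 calls, FOSL1 (adjusted p = 0.0455), FOSL2 (adjusted p = 0.0451) and MYC (adjusted p = 0.0327) in limma, where 40.2% of all genes were called (22.0% higher, 18.3% lower). A limma fit of all 6 libraries with library 3 as a term, chosen after the data were seen, called 3 of the 10 genes where 46.0% of all genes were called (24.6% higher, 21.5% lower). FOSL1 rose (0.92, 95% interval 0.56 to 1.27, adjusted p = 0.00149), and FOSL2 (-0.67, adjusted p = 0.0109) and MYC (-0.63, adjusted p = 0.00754) fell in that fit. Between the libraries numbered 3, EGR1 was 0.894 times and JUN 1.88 times as high in F1F2 as in mCherry cells, the opposite direction to libraries 1 and 2.

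**Figure D4:**
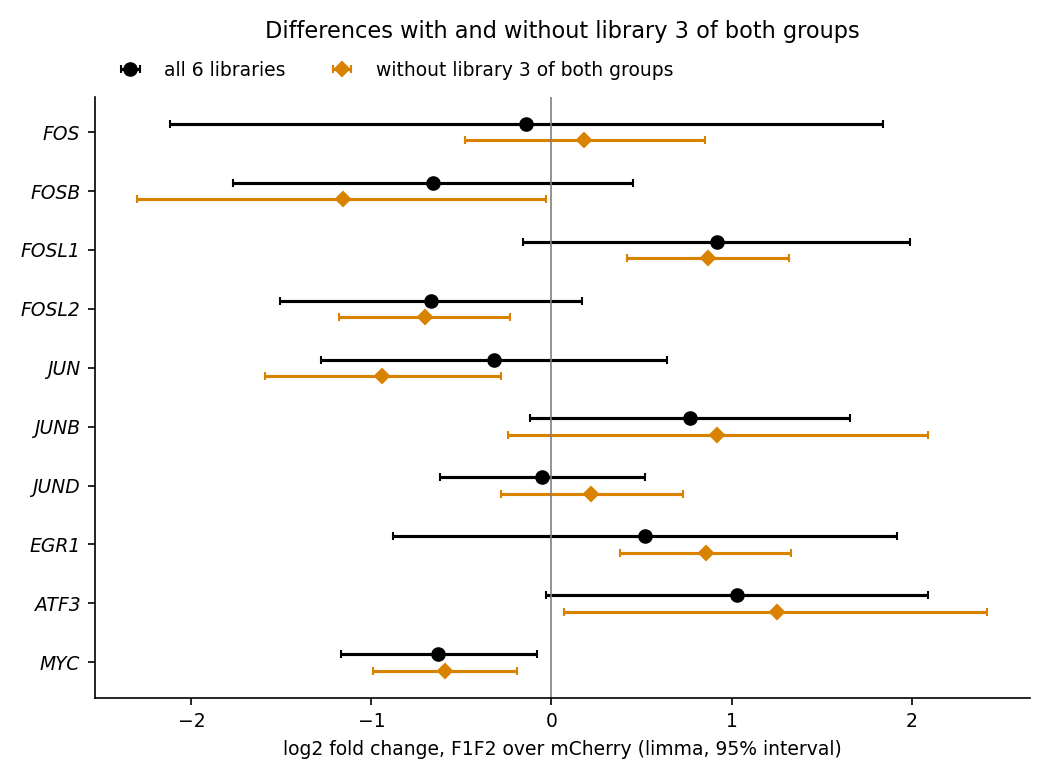
Log2 fold change of F1F2 over mCherry for each gene (x axis) from limma, with 95% intervals, for all 6 libraries (black circles, above) and without library 3 of both groups (orange diamonds, below). For FOSL1, FOSL2 and MYC the estimates are nearly the same in both fits and the intervals narrow without library 3.

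Of 164 other genes of the same pathways, 26 rose and 20 fell in the authors' deposited DESeq2 table, a share not tested against the 23.6% of all genes called. Of 27 other basic leucine zipper genes tested, 5 rose and 2 fell in the authors' deposited DESeq2 table (median log2 fold change 0.17). There 11.6% of all genes rose and 12.0% fell (median -0.04). In limma the all-gene median was 0.04 at a mean of at least 10 and 0.13 at a mean of at least 100. The list medians here and below are thus set against an all-gene median that depends on the expression filter. JDP2, a partner that represses AP-1 sites, rose to 595, 547 and 454 normalized counts in F1F2 libraries 1 to 3, against 197, 147 and 141 in mCherry libraries 1 to 3. No library of JDP2 overlapped the other group (log2 fold change 1.66, adjusted p = 1.56e-08). CREM, a cyclic AMP responsive factor, rose as well (1.08, adjusted p = 0.0153), and so did ATF2, a JUN partner phosphorylated by p38 and JNK (0.89, adjusted p = 5.61e-04), though the Tuxedo table gives ATF2 a q of 0.178. CREB5, a relative of ATF2, fell (-2.31, adjusted p = 1.37e-05), and NFE2L3, a relative of NRF2, fell too (-1.31, adjusted p = 6.51e-04); the Tuxedo q of CREB5 was 0.0962.

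Among 32 other immediate early genes tested, 9 rose and 2 fell in the authors' deposited DESeq2 table. Their median log2 fold change was 0.30. Shares over all genes tested there were 11.6% higher and 12.0% lower, with a median of -0.04. Of 29 tested, 8 rose and 4 fell in the authors' deposited Tuxedo table, where 6.93% of all genes rose and 10.0% fell. CTGF, a matricellular gene and serum response target, rose to 3254 ± 661 normalized counts in F1F2, against 197 ± 43.2 in mCherry cells (SD, n = 3). CYR61, its relative, rose to 3078 ± 920 in F1F2, against 597 ± 104 in mCherry cells. GADD45B, a stress-induced gene, rose to 1190 ± 494 in F1F2, against 375 ± 121 in mCherry cells (adjusted p = 2.91e-04), but had a Tuxedo q of 0.564. PTGS2, encoding cyclooxygenase 2, fell (-1.24, adjusted p = 0.0483), as did IER2 (-0.77, adjusted p = 0.0297). With the libraries numbered 3 left out, neither passed in limma (adjusted p = 0.0867 for PTGS2 and 0.0608 for IER2). DUSP1, a phosphatase that switches off MAP kinases and named here after its values were seen, rose to 14464, 14666 and 11824 in F1F2 libraries 1 to 3, against 4926, 6679 and 4574 in mCherry libraries 1 to 3 (log2 fold change 1.30, adjusted p = 5.29e-06, authors' deposited DESeq2 table). With the libraries numbered 3 left out, 12 of 29 of these genes rose and 4 fell in limma, where 23.6% of all genes rose and 20.6% fell.

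Of 33 upstream kinases and serum response factor partners, 6 rose and 4 fell in the authors' deposited DESeq2 table (median log2 fold change 0.18). Over all genes tested there, 11.6% rose and 12.0% fell (median -0.04). The Tuxedo table called 1 rise and 1 fall among 33, where 6.93% of all genes rose and 10.0% fell. RPS6KA2, an ERK-activated ribosomal S6 kinase, rose to 5175, 5121 and 3732 normalized counts in F1F2 libraries 1 to 3, against 577, 660 and 455 in mCherry libraries 1 to 3 (log2 fold change 2.95, adjusted p = 6.65e-27). MAPK13, which encodes p38 delta, fell to 81.0 ± 11.8 in F1F2, against 472 ± 130 in mCherry cells (SD, n = 3; log2 fold change -2.43, adjusted p = 7.60e-14). MAP2K2 (0.81) and MAPK7 (0.77) rose, and ELK4 (-0.77) and RPS6KA1 (-0.71) fell, in the authors' deposited DESeq2 table, with Tuxedo q-values from 0.0715 for RPS6KA1 to 0.326 for MAP2K2. With the libraries numbered 3 left out, 10 of 33 rose and 6 fell in limma, where 23.6% of all genes rose and 20.6% fell.

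Of the 17 tested genes known as AP-1 targets, 9 fell and 3 rose in the authors' deposited DESeq2 table, with a median log2 fold change of -1.11. Over all genes tested there, 12.0% fell and 11.6% rose, with a median of -0.04. The split was closer in the authors' deposited Tuxedo table, where 6 of 15 fell and 5 rose (10.0% and 6.93% of all genes). Among 14 genes limma called 6 falls and 2 rises (11.1% and 12.2% of all genes). HBEGF, an EGF receptor ligand, fell to 22.0, 17.2 and 53.5 normalized counts in F1F2 libraries 1 to 3, against 922, 1021 and 599 in mCherry libraries 1 to 3 (-4.38, adjusted p = 1.12e-24). PLAU, the urokinase gene, fell to 1262 ± 635 in F1F2, against 5035 ± 1715 in mCherry cells (SD, n = 3). SPRR1B, a cornified envelope gene, had 0, 0 and 1.03 in F1F2 libraries 1 to 3 and 656, 29.6 and 407 in mCherry libraries 1 to 3 (adjusted p = 3.05e-04, Tuxedo q = 0.450). CCND1, the cyclin D1 gene, rose to 7069 ± 552 in F1F2, against 1986 ± 693 in mCherry cells (SD, n = 3). TIMP1, a metalloprotease inhibitor gene, had deposited means of 49825 in F1F2 and 15511 in mCherry cells (1.61, adjusted p = 3.96e-06). With the libraries numbered 3 left out, 3 of 14 rose and 6 fell in limma, where 23.6% of all genes rose and 20.6% fell. Of those 14, 3 were over 2-fold higher in library 3 in each group, against 3.33% of all genes. Some of these genes, such as SPRR1B, are also epithelial or keratinocyte genes. Of the 7 epithelial and basal markers given above, 5 were lower in F1F2 cells in the authors' deposited DESeq2 table. KRT5 and KRT6A had higher means in F1F2 cells (adjusted p = 0.240 and 0.0571 in that table). The part of such genes in the result was not tested.

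**Figure D5:**
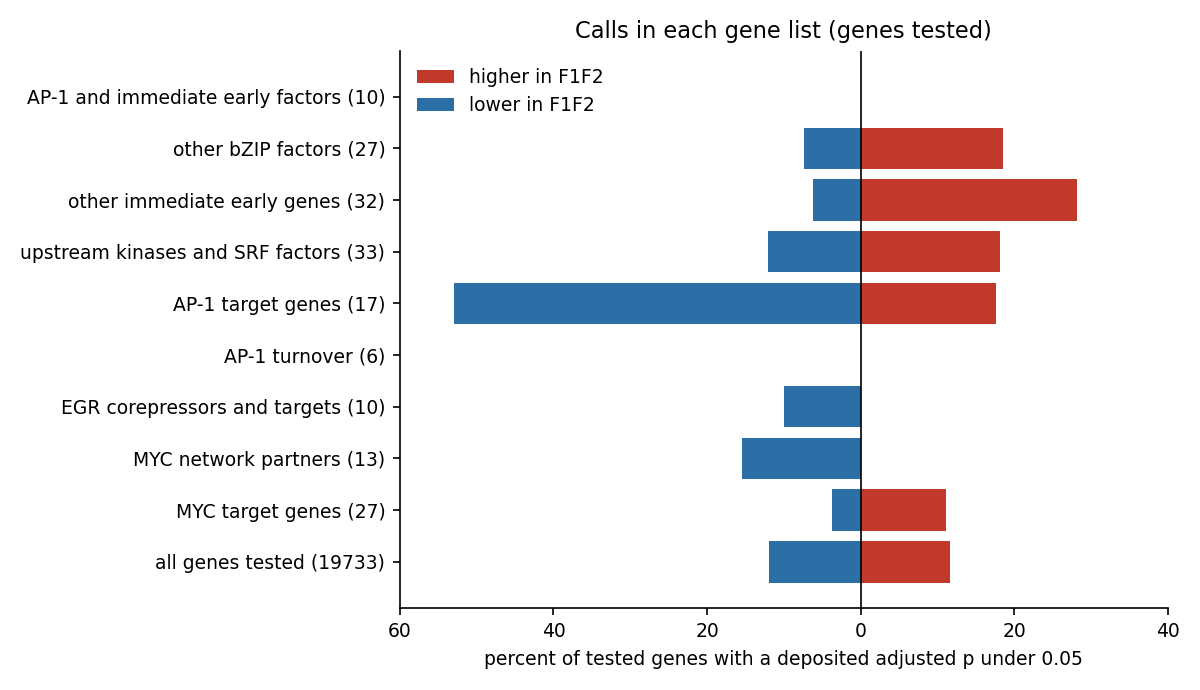
Percent of tested genes with a deposited adjusted p under 0.05 (x axis), higher in F1F2 to the right and lower to the left, for 9 lists of factor and pathway genes, marker lists not drawn, and for all genes, with the number tested. Among the lists drawn, the AP-1 target list reaches farthest to the left, with 9 of 17 genes lower, and the 10 factor genes have no bar.

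Lists around MYC and EGR1 are set against 11.6% of all genes higher and 12.0% lower in the authors' deposited DESeq2 table, and 23.6% and 20.6% with the libraries numbered 3 left out. Of 13 MYC network partners, 2 fell and 0 rose in the authors' deposited DESeq2 table (2 rose and 2 fell among 12 in limma with the libraries numbered 3 left out). They were MXD1, a MAX partner that opposes MYC (-0.91, adjusted p = 0.00438), and PIM1, a kinase gene that cooperates with MYC (-1.49, adjusted p = 0.00471), with Tuxedo q-values of 0.599 and 0.257. Of 27 MYC target genes, 3 rose and 1 fell, with a median log2 fold change of 0.33. Among the rises were the glycolytic gene ENO1 (1.12, adjusted p = 0.00398), the DNA repair gene APEX1 (0.66, adjusted p = 0.0109) and the nucleolar gene NPM1 (0.61, adjusted p = 0.0364). The fall in the DESeq2 table was of a gene with a mean under 50. Tuxedo q-values were 0.0117 for ENO1, 0.113 for APEX1 and 0.416 for NPM1. The Tuxedo table called 1 rise and 1 fall among 26 MYC target genes, where 6.93% of all genes rose and 10.0% fell. Of 22 MYC target genes, 7 rose and 0 fell in limma with the libraries numbered 3 left out. Of 10 EGR corepressors and targets, ICAM1 fell, to 887, 1095 and 787 normalized counts in F1F2 libraries 1 to 3, against 4339, 3747 and 1342 in mCherry libraries 1 to 3 (-1.63, adjusted p = 5.00e-04, authors' deposited DESeq2 table). Of 6 genes of AP-1 protein turnover 0 passed in that table, in limma with all libraries and in the Tuxedo table, and 1 rose and 1 fell in limma with the libraries numbered 3 left out.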

How the data were processed

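RNA of 3 F1F2 and 3 mCherry samples was sequenced from a stranded mRNA kit, per the labels' protocols; nothing there says that samples of a group were separate cultures, so the spread behind each p-value is that of these samples and may be technical. Per the submitters' processing notes the tools were bcl2fastq, HISAT2 2.1.0, HTSeq 0.9.1 and DESeq2 1.18.1 with build GRCh37; no annotation release was found among the labels. The authors' deposited table of means holds signal (mean normalized counts per group), a log2 fold change (F1F2 over mCherry) and p-values, per the file headers. That log2 fold change was smaller in size than the log2 ratio of the deposited means in 99.9% of 19655 tested genes with both means above 0, so it is a moderated estimate. Their deposited Tuxedo table holds FPKM per group, its own log2 fold change, a test score and q-values; the unit is that of the table layout, and no label names its versions. Gene positions are the loci it lists.

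The means have 15 significant digits, so each was solved for the whole counts of its 3 libraries, given 3 step sizes read from the lowest means. A unique solution was found for 99.71% of F1F2 and 99.73% of mCherry means above 0, including all 10 genes described. Altered means had a solution in 0.500% and 0.800% of 1000 cases, and the solver was tested on simulated data. Genes without a unique solution have the authors' means only. Library numbers follow falling size factor and pair nothing.

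The test reported is the authors' adjusted p under 0.05. A second fit used limma 3.58.1 (R 4.3.3, trend and robust, Benjamini-Hochberg) on log2(normalized count + 1) of the solved genes (mean at least 10), and was tested on simulated data. A count model was not used, since the solved counts look rescaled (closing section). The authors' DESeq2 test is itself a count model, and the counts were solved from the means deposited with it. The effect of the rescaling on its p-values was not tested. Alternatives were other pseudocounts, filters, scalings, the Tuxedo table, a stricter threshold, each library left out, library 3 of both groups left out and, added after the data were seen, library 3 as a term. Genes and lists were chosen with earlier results of these data known. Outside the 10, a rule names at most 3 genes per list and direction. They are those with the largest deposited log2 fold change among calls with a mean of at least 50. Exceptions are DUSP1, EGR2 and EGR3, chosen after their values were seen, and some of the cell type markers. A marker of the immune list is not reported here. Likeness to a called member was not computed because none was called. Python 3.11.15, numpy 2.4.6, pandas 2.3.3, numba 0.67.0 and matplotlib 3.10.9 were used.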

Additional observations from a re-analysis of the deposited data

How the results depend on the processing

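With 3 libraries a group and library 3 standing apart, the limma intervals set the precision of each log2 difference. No paired analysis was possible because the tables hold group means and the solved libraries carry no replicate numbers. Setting the libraries numbered 3 side by side, as a term or in ratios, or leaving both out, rests on both standing apart in these data. It does not rest on a labelled match. The count of the 10 genes called was 0 higher and 0 lower under the 0.01 threshold and under limma with all 6 libraries at pseudocounts of 0.5, 1 and 5, under each filter and scaling. It was 1 higher and 1 lower in the Tuxedo table, 2 higher and 3 lower in limma without library 3 of both groups, 1 higher and 2 lower with library 3 as a term (chosen after the data were seen), and 0 to 1 higher and 0 to 2 lower when each library was left out in turn. Of 167 alternative values of single genes, 139 kept their direction and were not called, 13 kept it and were called, and 15 had the opposite sign, all of FOS or JUND. FOS had -0.14 in limma, -0.14 with library 3 as a term, -0.14 with a pseudocount of 0.5, no filter or a mean of at least 100, -0.13 with a pseudocount of 5, -0.18 scaled by total and -0.22 by upper quartile. Leaving out libraries gave FOS -0.35, -0.80 and -0.69 without F1F2 library 1, F1F2 library 2 and mCherry library 3, and 0.74 without F1F2 library 3. JUND had 0.01 in the Tuxedo table, 0.22 without library 3 of both groups, and 0.13 and 0.04 without F1F2 or mCherry library 3, against -0.21 without F1F2 library 2.

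Of 164 tested pathway genes outside the 10, 26 were higher and 20 lower in the deposited table. The lower count was 13 at the 0.01 threshold and 13 in limma with a mean of at least 100, the higher count was 41 both with library 3 as a term and with the libraries numbered 3 left out (limma), and leaving out 1 library gave 8 to 35 higher and 4 to 21 lower. Among all genes tested 2298 were higher and 2363 lower. The counts were 1317 and 1561 at the 0.01 threshold, 1180 higher in the Tuxedo table, 1304 lower in limma with a mean of at least 100, 3761 higher in limma without library 3 of both groups, 3906 higher with library 3 as a term, and 354 to 3492 higher and 645 to 2908 lower with 1 library left out. Among the fits that left out 1 library, whole-table calls were most numerous without mCherry library 3 and fewest without F1F2 library 1. The cause was not tested.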

Other observations

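The whole counts solved from the deposited means have gaps and doublings at even spacing, as counts multiplied by a factor and rounded would have; no label or header describes such a step. In mCherry library 1 the values 2, 6 and 9 are nearly absent, with 25, 17 and 20 genes, while the neighbouring values 1, 3 and 7 have 2560, 1280 and 556 genes. In F1F2 library 3 the value 3 has 1640 genes, more than the 1440 genes at 2. The spacing gives estimated factors of 1.360 in mCherry library 1, 1.039 in mCherry library 2 and 0.939 in mCherry library 3, and of 0.935, 0.888 and 0.865 in F1F2 libraries 1 to 3. By these factors mCherry library 1 had the fewest reads, an estimated 14873015 in solved genes, and F1F2 library 3 the most, 23220276. FOSB has the lowest counts of the genes described, at 7.0 to 22.8 normalized counts, where rounding weighs most.

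EGR2 and EGR3, relatives of EGR1 chosen after their values were seen, lay on opposite sides. EGR2 had 51.0, 42.6 and 14.4 normalized counts in F1F2 libraries 1 to 3 and 15.2, 17.2 and 2.96 in mCherry libraries 1 to 3 (log2 fold change 1.30, adjusted p = 0.0823, authors' deposited DESeq2 table; q = 0.0415 in their Tuxedo table). EGR3 had 58.0, 29.4 and 18.5 in F1F2 libraries 1 to 3 and 187, 98.5 and 28.6 in mCherry libraries 1 to 3 (-1.31, adjusted p = 0.0650, authors' deposited DESeq2 table; q = 0.942 in their Tuxedo table). In limma with the libraries numbered 3 left out, the adjusted p was 0.0124 for EGR2 and 0.0136 for EGR3. Both were lowest in library 3 of each group, as EGR1 was.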
